A study of Homo sapiens with 18 samples.

Results

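The 37 genes described here belong to the cellular response to low oxygen and to glycolysis, and they were chosen by name. Each gene was followed through the array probe that carries its symbol and had the highest mean signal over the 18 arrays. A named probe existed for 36 of the 37 genes. Of these, 35 passed the detection filter (1 group or more with a detection p-value under 0.01 on each of its 3 arrays) and were tested among 11978 genes. The kinase PDK1, which inhibits pyruvate dehydrogenase, did not pass that filter, and the carbonic anhydrase CA9 was not analysed here. RNA came from 3 human bladder cancer cell lines, each with its own intervention and its own control on 3 arrays per group. UC14 cells carried an shRNA against p63, a transcription factor of basal epithelia, or a non-targeting shRNA. Scaber cells received an siRNA against STAT3, which relays cytokine signals to the nucleus, or a non-targeting siRNA. UC7 cells were given rosiglitazone, a thiazolidinedione drug that activates PPARγ, at 1 µM for 24 h, or served as controls. All lines grew in medium with serum in a standard incubator, and the labels name no treatment with low oxygen in any group. Each intervention was made in 1 line, so the agent and the line cannot be told apart. The labels do not say whether the UC7 controls received vehicle, whether the shRNA lines were clones or pools, or how long after transfection the RNA was taken. They also do not say whether a group's 3 arrays stand for 3 cultures. The p-values therefore rest on array-to-array spread that may be technical only.

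Cells sense oxygen through prolyl hydroxylases that mark the alpha subunits of hypoxia-inducible factor (HIF) for destruction while oxygen is present. When oxygen is scarce the subunits persist, enter the nucleus and bind a short core motif near genes for glucose use, vessel growth, pH control, mitophagy and collagen processing. Tumour cells often run glycolysis strongly even with oxygen, and many glycolytic enzymes are HIF targets as well as housekeeping enzymes of every cell.

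The arrays had median raw signals of 51.6 to 56.3 for UC7, 98.5 to 114 for UC14 and 96.3 to 115.8 for Scaber. Between 14032 and 20440 of 47323 probes were detected per array, and arrays of a group correlated at 0.982 to 0.997. All 6 epithelial markers (such as KRT8 and EPCAM) were detected on every array of each line. Of 4 immune markers with a probe, CD68 was detected on all arrays of each line and CD14 on all arrays of Scaber and UC7, while the T cell marker CD3E was detected on none. Of 3 endothelial markers, PECAM1 was detected on all UC7 arrays and VWF on no array. Of 8 urothelial markers 4 were detected on all arrays in UC14, 3 in Scaber and 5 in UC7. GATA3, UPK1A, UPK2 and UPK3A were detected on no Scaber array, UPK3A on no UC14 array and KRT5 on no UC7 array. Of 6 stromal markers 4 (ACTA2, COL1A1, LUM and VIM) were detected on all arrays in UC14 and Scaber and 2 (ACTA2 and VIM) in UC7, with COL3A1 and DES detected on none. Of the 8 urothelial markers, 5 rose and 1 fell in UC14, 0 were called in Scaber, and 5 rose and 2 fell in UC7. Of the 6 epithelial markers, 5 rose in UC14, 2 rose and 1 fell in Scaber, and 1 fell in UC7. Of 2 tested immune markers 1 rose in UC14, 2 fell in Scaber, and 1 rose and 1 fell in UC7. The 1 tested endothelial marker rose in UC14 and UC7. Of 4 tested stromal markers 1 fell in UC14, and 1 rose and 2 fell in Scaber. Among all genes 44.7% were called in UC14, 25.9% in Scaber and 24.5% in UC7. The part of these markers in the results below was not tested. STAT3 itself read 6.42, 6.84 and 6.65 on the log2 scale under its siRNA in Scaber, against 9.89, 9.93 and 9.89 in non-targeting cells. The groups were far apart, with a log2 change of -3.26 ± 0.11. TP63, the target of the shRNA, was not analysed here.

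The promoters of BNIP3, P4HA1 and PFKFB4, which were lower in all 3 comparisons, and of ENO2, which moved in opposite directions, are shown because HIF binds the core ACGTG or GCGTG. Each is 300 bases from RefSeq on GRCh38.p14, 250 before to 50 after the gene's start, written 5′ to 3′ on the gene's strand, with matches on either strand in capitals. BNIP3 lies at chr10:131981874-131982173 (minus strand), P4HA1 at chr10:73096817-73097116 (minus), PFKFB4 at chr3:48556754-48557053 (minus) and ENO2 at chr12:6914330-6914629 (plus).
BNIP3: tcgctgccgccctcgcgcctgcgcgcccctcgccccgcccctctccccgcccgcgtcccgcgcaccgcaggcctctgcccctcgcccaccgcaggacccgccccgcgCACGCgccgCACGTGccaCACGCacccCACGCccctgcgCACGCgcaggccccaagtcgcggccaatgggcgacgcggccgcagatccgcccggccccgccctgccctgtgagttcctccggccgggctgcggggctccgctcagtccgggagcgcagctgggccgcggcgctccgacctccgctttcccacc
P4HA1: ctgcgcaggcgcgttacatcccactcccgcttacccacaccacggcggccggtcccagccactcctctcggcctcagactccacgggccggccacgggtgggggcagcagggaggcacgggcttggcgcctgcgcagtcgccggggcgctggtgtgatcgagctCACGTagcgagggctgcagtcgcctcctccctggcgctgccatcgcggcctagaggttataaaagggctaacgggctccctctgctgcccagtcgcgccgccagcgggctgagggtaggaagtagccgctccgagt
PFKFB4: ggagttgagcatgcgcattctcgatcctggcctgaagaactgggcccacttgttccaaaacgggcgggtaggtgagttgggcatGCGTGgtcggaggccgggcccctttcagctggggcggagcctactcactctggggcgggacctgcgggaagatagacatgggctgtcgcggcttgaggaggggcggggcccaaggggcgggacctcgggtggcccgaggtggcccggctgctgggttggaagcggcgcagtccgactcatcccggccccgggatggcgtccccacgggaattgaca
ENO2: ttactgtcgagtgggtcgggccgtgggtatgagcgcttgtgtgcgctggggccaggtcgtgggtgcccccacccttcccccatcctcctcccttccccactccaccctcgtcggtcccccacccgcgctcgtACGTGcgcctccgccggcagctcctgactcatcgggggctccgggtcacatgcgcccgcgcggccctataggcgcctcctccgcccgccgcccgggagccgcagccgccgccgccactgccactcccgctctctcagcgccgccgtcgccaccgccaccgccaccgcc
The BNIP3 window held 2 matches to ACGTG, both strands of 1 palindrome CACGTG, and 4 to GCGTG, between positions -143 and -104 from the start. ENO2 had 1 ACGTG match at position -118 and P4HA1 1 at position -86, whereas PFKFB4 had 1 match to GCGTG at position -166. The promoter set used here held windows for 34 of the 37 genes and none for BNIP3L, NDRG1 and VEGFA. Some genes had several starts, which gave 56 windows that may overlap. ACGTG was found in 26 of these windows (46.4%), against 21.4% of 35116 promoter windows. Among 14037 windows of genes tested on the arrays the share was 25.3%. By gene, 21 of the 34 had ACGTG in at least 1 window. GCGTG was found in 28 of the 56 windows and in 36.5% of the 35116. These matches describe letters only, and no binding was measured.

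In each line most of the genes were lower after the intervention than in its control. Under p63 shRNA in UC14, 20 of the 35 tested genes fell and 4 rose at an adjusted p (limma, two-sided, Benjamini-Hochberg over all genes) under 0.05, which is 68.6% called, against 44.7% of all genes tested (20.9% lower and 23.8% higher). Under STAT3 siRNA in Scaber 19 fell and 1 rose (57.1%), against 25.9% of all genes (13.8% lower and 12.1% higher). Rosiglitazone-treated UC7 cells had 25 lower and 1 higher (74.3%), against 24.5% of all genes (12.0% lower and 12.5% higher). The median log2 change of the 35 genes was -0.35 in UC14, -0.43 in Scaber and -0.54 in UC7, while the median of all genes was 0.01, 0.01 and -0.00086. Setting ENO2 and EGLN3 at their bounds, given below with their values, left these medians as they are. Arrays measure the RNA of the whole culture, so fewer expressing cells and less RNA per cell cannot be told apart.

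**Figure D1:**
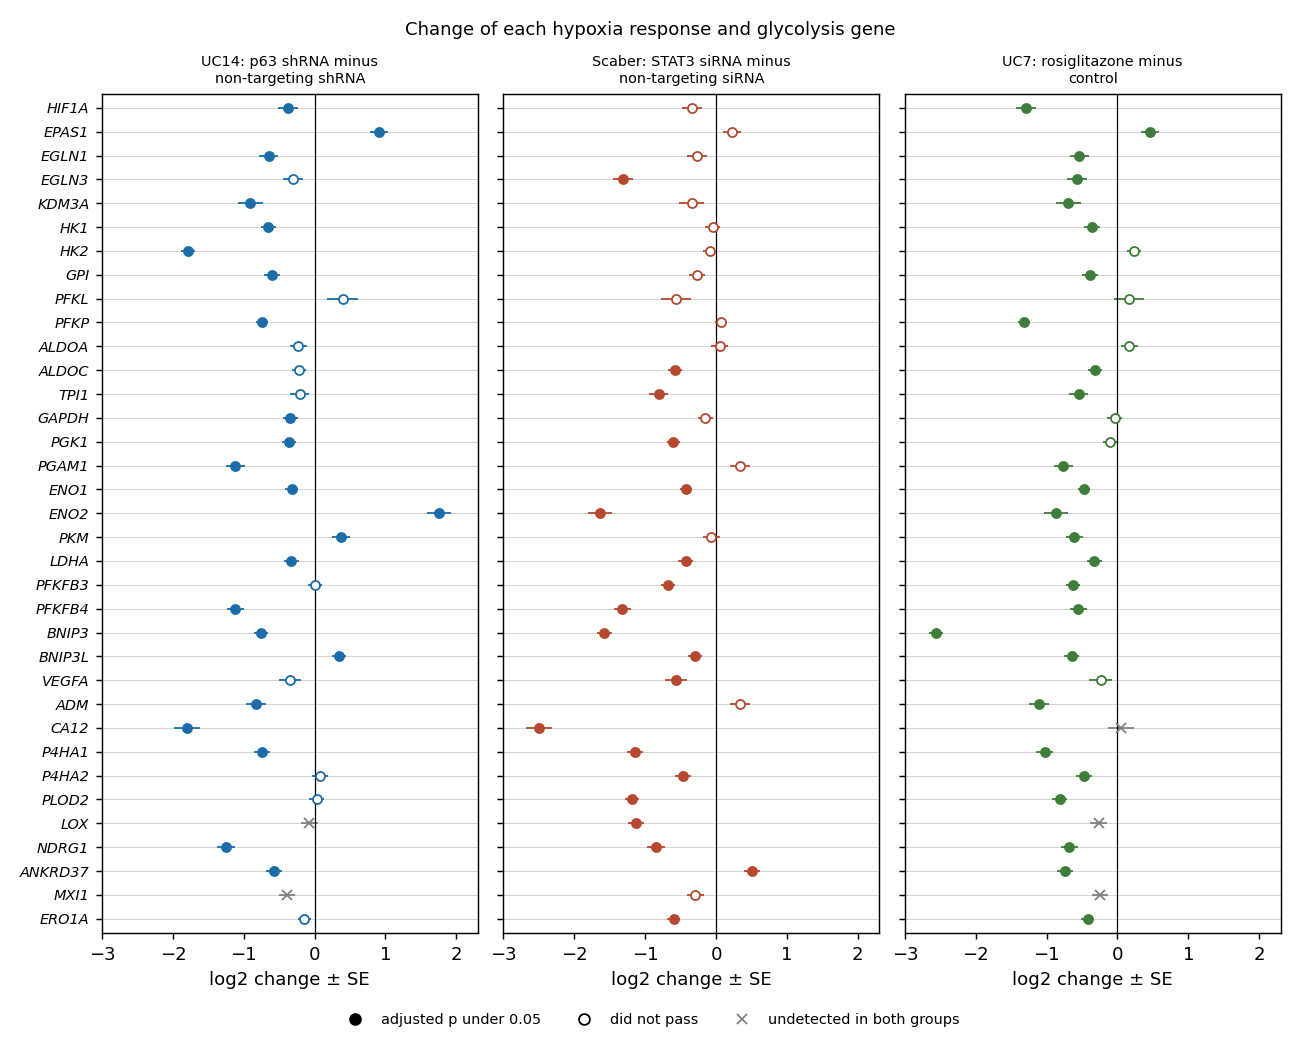
Log2 change with its standard error (x axis) for each of the 35 tested genes (y axis) in the 3 comparisons, intervention minus control, where filled points passed an adjusted p under 0.05, open points did not and crosses mark genes undetected in both groups. Most filled points lie left of 0 in each panel, with BNIP3 at -2.56 in UC7 and CA12 at -2.49 in Scaber farthest left, and ENO2 at 1.75 in UC14 farthest right.

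The shift was present on each array of each intervention. Set against the control mean of its line, the median gene of the set lay at -0.40, -0.39 and -0.28 on the 3 p63 shRNA arrays. The corresponding values were -0.43, -0.42 and -0.44 under STAT3 siRNA and -0.52, -0.54 and -0.47 under rosiglitazone. Control arrays stayed between -0.06 and 0.06. In UC14 the 3 p63 shRNA arrays all lay below the 3 controls for 21 genes and above them for 3, which holds for 22.3% and 24.7% of all genes. In Scaber these counts were 22 and 3 (19.2% and 19.9% of all genes), and in UC7 they were 28 and 2 (25.4% and 25.0%).

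**Figure D2:**
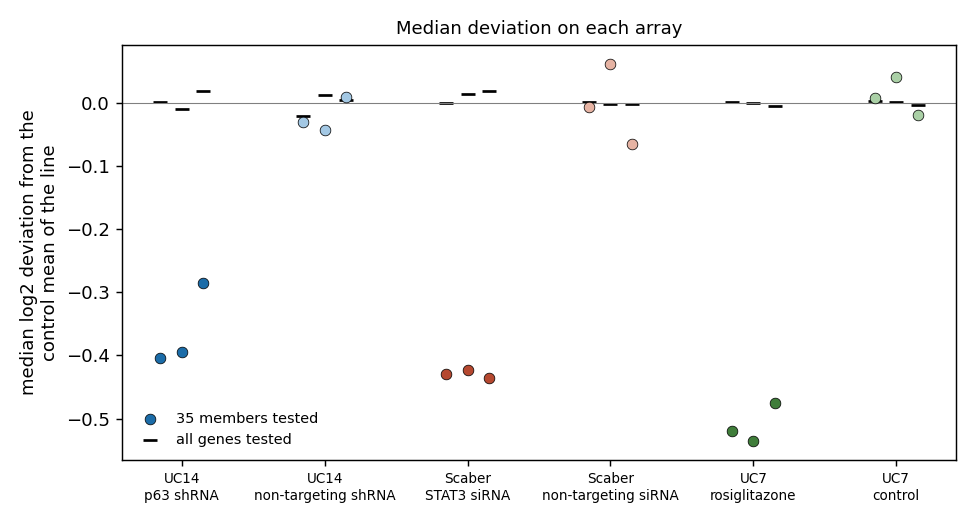
Median log2 deviation from the control mean of the line (y axis) on each of the 18 arrays, grouped by condition (x axis), with coloured points for the 35 genes and black dashes for all genes tested. The 9 intervention arrays sit between -0.54 and -0.28 for the gene set, and the dashes stay near 0 on every array.

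Few genes fell in all 3 lines. ENO1, LDHA, PFKFB4, BNIP3, P4HA1 and NDRG1 did, 6 of 35 genes, against 0.868% of all genes, and 0 rose in all 3, against 0.977%. In at least 2 comparisons 26 of the 35 were lower, against 8.15% of all genes, and 1 was higher, against 9.37%. The phosphofructokinase PFKL and the aldolase ALDOA were called in none. ALDOA changed by -0.23 in UC14 (adjusted p = 0.142), where another of its probes was called lower (-0.35, adjusted p = 0.0393). It also passed there with the mean of its probes (-0.29, adjusted p = 0.0347) and without p63 shRNA replicate 3 (-0.35, adjusted p = 0.032). Other genes fell in 2 lines: HIF1A, EGLN1, KDM3A, HK1, GPI, PFKP, PGAM1 and ADM fell in UC14 and UC7 without passing in Scaber, and EGLN3, ALDOC, TPI1, PFKFB3, P4HA2, PLOD2 and ERO1A fell in Scaber and UC7 without passing in UC14.

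Of the oxygen-sensing factors, HIF1A fell in UC7 and EPAS1 rose in UC14. HIF1A encodes the widely expressed alpha subunit of HIF. It read 7.70, 7.99 and 7.58 log2 signal under rosiglitazone, against 8.99, 9.31 and 8.85 in UC7 controls. The 3 treated arrays lay well below the controls, a change of -1.29 ± 0.14 (2.45-fold lower, adjusted p = 2.67e-06), and the gene's other probes gave -1.33 and -1.32. In UC14 the p63 shRNA arrays, at 9.84, 9.87 and 9.89, also lay below the non-targeting arrays, at 10.27, 10.26 and 10.19. This change of -0.37 ± 0.14 (adjusted p = 0.0401) was called, but the call was lost in 9 of 15 other settings, among them leaving out any single UC14 array (adjusted p of 0.0565 to 0.0912), while the other probes fell by 0.85 and 0.72. In Scaber HIF1A read 10.07, 9.58 and 10.12 under STAT3 siRNA and 10.26, 10.24 and 10.30 in non-targeting cells. The groups did not overlap, with STAT3 siRNA replicate 2 lowest, but the change of -0.34 ± 0.14 did not pass (adjusted p = 0.0882). It passed in 4 of 15 other settings: under median scaling (-0.48, adjusted p = 0.0446), without background correction (-0.32, adjusted p = 0.0372), in the authors' deposited log2 values (adjusted p = 0.0372) and with a replicate block (adjusted p = 0.0407). Without STAT3 siRNA replicate 2 it was -0.17.

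EPAS1 encodes the other main alpha subunit, which has a narrower range of tissues. Under p63 shRNA it read 13.03, 13.06 and 13.36, against 12.07, 12.12 and 12.55 in non-targeting UC14 cells. All 3 knockdown arrays lay above all controls, and EPAS1 rose by 0.90 ± 0.13 (1.87-fold, adjusted p = 2.12e-05). With rosiglitazone it read 11.28, 11.16 and 11.26, against 10.84, 10.77 and 10.75 in UC7 controls. That rise of 0.45 ± 0.13 (adjusted p = 0.0146) did not pass under median scaling (0.37, adjusted p = 0.129) or without rosiglitazone replicate 1 (0.43, adjusted p = 0.0529). In Scaber the values were 10.39, 10.42 and 10.52 under STAT3 siRNA and 10.30, 10.01 and 10.34 in non-targeting cells, a change of 0.22 ± 0.13 that did not pass (adjusted p = 0.217). EPAS1 was the one gene of the set that rose in more than 1 line.

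**Figure D3:**
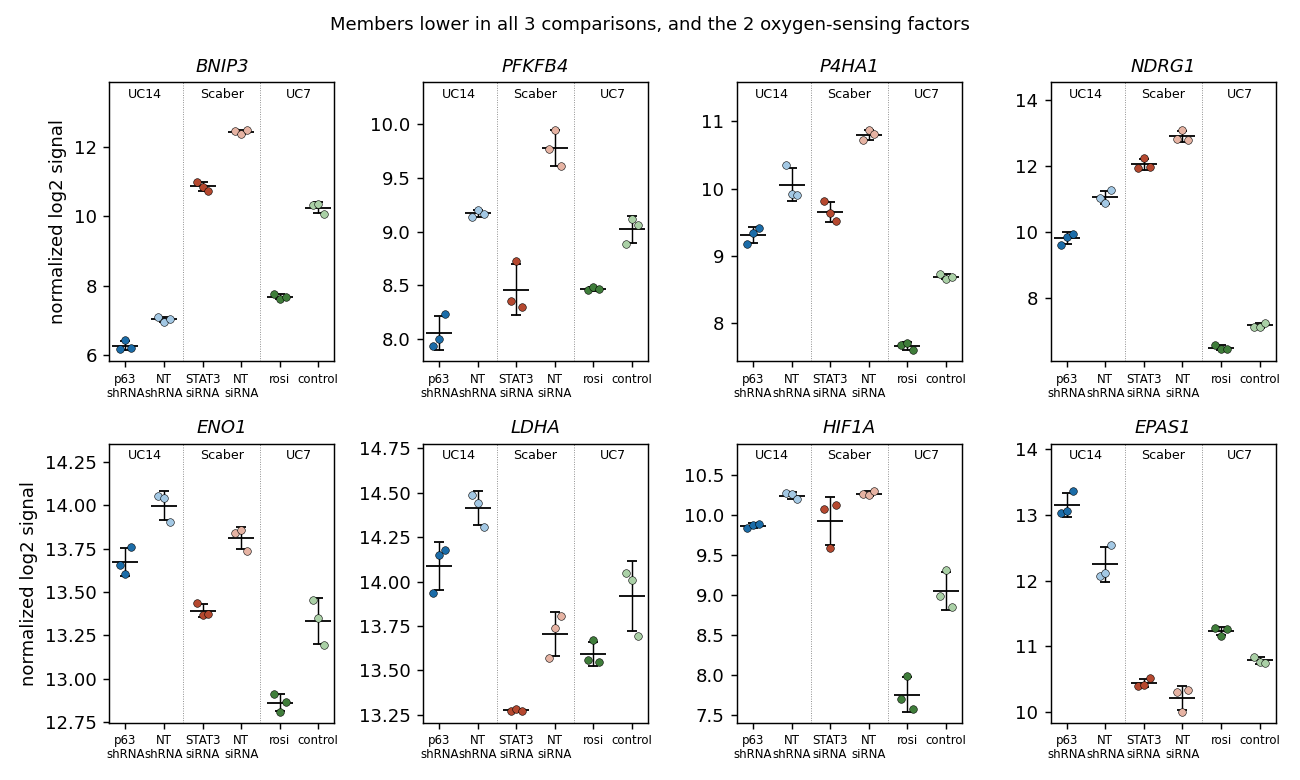
Normalized log2 signal (y axis) on each array for the 6 genes lower in all 3 comparisons and for HIF1A and EPAS1, by line and group (x axis, NT non-targeting, rosi rosiglitazone), with bars for mean and SD of 3 arrays. BNIP3 under rosiglitazone lies between 7.62 and 7.76 against 10.06 to 10.36 in UC7 controls, whereas EPAS1 under p63 shRNA lies above its controls.

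The feedback genes EGLN1 and EGLN3, prolyl hydroxylases that HIF induces, and KDM3A, a HIF-induced histone demethylase, fell in 2 lines each. KDM3A read 6.61, 6.12 and 6.70 under p63 shRNA, against 7.17, 7.31 and 7.67 in non-targeting UC14 cells. The groups were apart, and it fell by 0.91 ± 0.17 (adjusted p = 0.000435), or by 0.59 without background correction. In UC7 KDM3A fell by 0.69 ± 0.17 (adjusted p = 0.00711), or by 0.41 without background correction, and in Scaber it changed by -0.34 (adjusted p = 0.167). EGLN3 was not detected on any STAT3 siRNA array in Scaber, where it read 4.82, 5.24 and 4.95, while it was detected on all 3 non-targeting arrays at 6.28, 6.44 and 6.24. It was at least 1.90-fold lower under STAT3 siRNA (adjusted p = 4.13e-06) on background-corrected values. That bound does not hold without background correction, where EGLN3 fell by 0.59 on the log2 scale. In UC7 EGLN3 fell by 0.57 ± 0.14 with 2 of 3 rosiglitazone arrays detected (0.23 without background correction, 0.86 under median scaling). Without rosiglitazone replicate 1 the change of -0.41 did not pass (adjusted p = 0.0505). EGLN1 fell by 0.65 in UC14 and by 0.54 in UC7 and changed by -0.27 in Scaber (adjusted p = 0.169). It passed in Scaber under median scaling (-0.42, adjusted p = 0.0432), with array weights (-0.38, adjusted p = 0.018) and without non-targeting replicate 3 (-0.47, adjusted p = 0.00358).

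Among the 15 glycolytic enzymes, 9 fell and 2 rose in UC14, 6 fell in Scaber and 10 fell in UC7, with median log2 changes of -0.33, -0.27 and -0.36. Of all genes, 20.9% fell and 23.8% rose in UC14, and 13.8% fell in Scaber and 12.0% in UC7. The enzymes that carried the largest changes differed by line. HK2, the inducible hexokinase that traps glucose in the cell, read 6.83, 6.93 and 6.71 under p63 shRNA and 8.78, 8.46 and 8.61 in non-targeting UC14 cells. The groups were more than a log2 unit apart, and HK2 was 3.46-fold lower (-1.79 ± 0.10, adjusted p = 3.08e-10). It changed by -0.08 in Scaber (adjusted p = 0.62) and by 0.24 in UC7 (adjusted p = 0.0918), and the UC14 change differed from both (differences of -1.71 ± 0.14 and -2.03 ± 0.14, adjusted p = 6.85e-08 and 1.55e-08). The UC7 rise of HK2 passed with array weights (0.25, adjusted p = 0.01) and with the UC7 arrays alone (0.24, adjusted p = 0.0395). The constitutive hexokinase HK1 fell by 0.66 in UC14 and by 0.36 in UC7 (adjusted p = 0.0205). The UC7 call of HK1 was lost with the mean of its probes (-0.21), under median scaling, and without rosiglitazone replicate 1 or 3 or control replicate 1 or 2 (-0.37 to -0.33).

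PFKP, the platelet form of phosphofructokinase, which catalyses the committed step, read 9.64, 9.87 and 9.87 under rosiglitazone and 11.05, 11.19 and 11.09 in UC7 controls. The arrays of the groups did not come near each other, and PFKP was 2.49-fold lower (-1.32 ± 0.09, adjusted p = 7.32e-09). It fell by 0.74 ± 0.09 in UC14 and changed by 0.07 in Scaber (adjusted p = 0.61). PGAM1, a phosphoglycerate mutase whose gene has processed copies that the probe may also bind (not tested), fell in the same lines. In UC14 it read 11.66, 11.73 and 12.00 under p63 shRNA, against 12.60, 12.99 and 13.16 in non-targeting cells, and fell by 1.12 ± 0.14 (adjusted p = 4.73e-06). In UC7 it read 10.00, 9.82 and 10.22 with rosiglitazone, against 10.74, 10.87 and 10.72 in controls, and fell by 0.76 ± 0.14 (adjusted p = 0.000456). The groups did not overlap in either line, whereas in Scaber PGAM1 changed by 0.34 (adjusted p = 0.0805). This rise passed without background correction (0.33, adjusted p = 0.0373), in the authors' log2 values (adjusted p = 0.0373) and with the Scaber arrays alone (adjusted p = 0.0461).

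ENO2, the enolase of neurons and neuroendocrine cells, changed in opposite directions. It was detected on all 3 p63 shRNA arrays at 6.54, 6.09 and 6.42 and on no non-targeting array of UC14, where it read 4.53, 4.45 and 4.82. ENO2 was at least 1.46-fold higher under p63 shRNA on background-corrected values (adjusted p = 3.24e-07), and the fitted change was 1.75 ± 0.17, or 0.81 without background correction. In Scaber it read 6.55, 6.14 and 5.69 under STAT3 siRNA, against 7.75, 7.66 and 7.89 in non-targeting cells. All 3 siRNA arrays lay lower and also spread more widely, and ENO2 fell by 1.64 ± 0.17 (adjusted p = 2.31e-06), or by 1.06 without background correction. With rosiglitazone it read 8.69, 8.80 and 8.71, against 9.62, 9.58 and 9.60 in UC7 controls, and fell by 0.87 ± 0.17 (adjusted p = 0.00101). The UC14 change exceeded that in Scaber by 3.39 ± 0.24 and that in UC7 by 2.62 ± 0.24 (adjusted p = 1.38e-08 and 3.68e-07).

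ENO1, the enolase of most tissues, fell by 0.33, 0.42 and 0.47 in UC14, Scaber and UC7 (SE 0.09 in each). LDHA, which makes lactate from pyruvate, fell by 0.33, 0.43 and 0.32 (SE 0.11 in each). Both lost the UC14 call under median scaling (ENO1 -0.24, adjusted p = 0.164, LDHA -0.25, adjusted p = 0.176). LDHA also did not pass in UC14 without non-targeting replicate 1 (-0.29) or p63 shRNA replicate 1 (-0.25). The same held with array weights (adjusted p = 0.0613) and with the UC14 arrays alone (adjusted p = 0.0641). In UC7 LDHA did not pass under median scaling (-0.31) or without rosiglitazone replicates 1 or 3 or control replicates 1 or 2 (-0.31 to -0.26). In Scaber the LDHA change was -0.74 with the mean of its probes.

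PKM, the pyruvate kinase of proliferating cells and muscle, read 11.90, 12.20 and 11.96 under p63 shRNA and 11.95, 11.41 and 11.59 in non-targeting UC14 cells. These groups overlapped. Its rise of 0.37 ± 0.12 (adjusted p = 0.0216) did not pass when non-targeting replicate 2 (0.25), non-targeting replicate 3 (0.34) or knockdown replicate 2 (0.28) was left out, with the UC14 arrays alone (adjusted p = 0.138), or for another of its probes (0.28, adjusted p = 0.116). PKM fell by 0.61 ± 0.12 in UC7 (by 0.38 with the mean of its probes) and changed by -0.07 in Scaber. TPI1 and ALDOC, which act on triose phosphates, fell in Scaber by 0.81 and 0.58 and in UC7 by 0.55 and 0.32. The other TPI1 probe fell by 0.96 in Scaber and by 0.59 in UC14 (adjusted p = 0.0237). Its UC7 change of -0.31 did not pass (adjusted p = 0.314). The UC7 call of ALDOC was lost without background correction (-0.15) and without rosiglitazone replicates 2 or 3 or control replicates 1 or 3 (-0.32 to -0.27). PGK1, which yields ATP, fell by 0.60 in Scaber and by 0.36 in UC14, where median scaling gave -0.22 and no call. Its other probe fell by 0.95 in Scaber and by 0.59 in UC14 (adjusted p = 0.000125).

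GPI, which converts glucose phosphate to fructose phosphate, fell by 0.61 in UC14 and by 0.39 in UC7, where it did not pass without rosiglitazone replicate 1 or control replicate 2 (both -0.33). GAPDH fell by 0.34 in UC14 (adjusted p = 0.0136) and changed by -0.15 in Scaber and -0.04 in UC7. That UC14 call was lost under median scaling (-0.26) and without non-targeting replicate 1 (-0.29) or p63 shRNA replicate 1 (-0.23). It was also lost with array weights (adjusted p = 0.0747) and with the UC14 arrays alone (adjusted p = 0.0959). PFKL changed by 0.40, -0.56 and 0.16 in UC14, Scaber and UC7 with none called, and it passed in UC14 under median scaling (0.57) and without non-targeting replicate 3 (0.70). In Scaber it passed under median scaling (-0.70) and when non-targeting replicate 3 (-0.70) or knockdown replicate 2 (-0.77) was left out.

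PFKFB4 and PFKFB3 are bifunctional enzymes that set the level of the activator of phosphofructokinase. PFKFB4, whose promoter is shown above, read 7.93, 7.99 and 8.23 under p63 shRNA, against 9.14, 9.20 and 9.16 in non-targeting UC14 cells. The groups were apart, and it fell by 1.12 ± 0.12 (adjusted p = 1.19e-06). In Scaber it read 8.35, 8.73 and 8.29 under STAT3 siRNA, against 9.77, 9.95 and 9.61 in non-targeting cells. That fall of 1.32 ± 0.12 (2.50-fold, adjusted p = 6.51e-07) was larger than the fall of 0.56 ± 0.12 in UC7 (difference -0.77 ± 0.17, adjusted p = 0.00282). PFKFB3 fell by 0.68 in Scaber and by 0.63 in UC7 and changed by 0.01 in UC14 (adjusted p = 0.956).

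BNIP3, a mitophagy receptor of the outer mitochondrial membrane and a classical HIF target, had the largest change of the set. It read 7.76, 7.62 and 7.68 under rosiglitazone, against 10.33, 10.36 and 10.06 in UC7 controls. The treated arrays lay more than 2 log2 units lower, and BNIP3 fell 5.90-fold (-2.56 ± 0.10, adjusted p = 2.17e-11). Under STAT3 siRNA it read 11.00, 10.86 and 10.74, against 12.46, 12.38 and 12.49 in non-targeting Scaber cells, and fell by 1.58 ± 0.10 (adjusted p = 9.71e-09). In UC14 it fell by 0.76 ± 0.10 (adjusted p = 1.12e-05), or by 0.46 without background correction. The 3 changes differed from one another: UC14 exceeded Scaber by 0.82 ± 0.14, UC14 exceeded UC7 by 1.80 ± 0.14 and Scaber exceeded UC7 by 0.98 ± 0.14 (adjusted p = 0.000218, 7.29e-08 and 6.92e-05).

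BNIP3L, the related receptor, did not follow BNIP3 in UC14. It read 8.82, 9.17 and 9.00 under p63 shRNA and 8.75, 8.67 and 8.53 in non-targeting cells. The groups were apart by a small gap, and BNIP3L rose by 0.34 ± 0.10 (adjusted p = 0.0115), or by 0.52 under median scaling. The other BNIP3L probe changed by -0.08 (adjusted p = 0.732), and the call was lost with the mean of the probes (0.13), with the UC14 arrays alone, and without non-targeting replicate 3 (0.28) or p63 shRNA replicate 2 (0.26). BNIP3L fell by 0.65 in UC7 and by 0.30 in Scaber (adjusted p = 0.0385), where it did not pass when any 1 of non-targeting replicates 1 and 3 or of the 3 STAT3 siRNA arrays was left out (-0.33 to -0.25).

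Of the secreted factors, ADM (adrenomedullin, a vasodilator peptide) fell in 2 lines. It read 9.34, 9.17 and 9.52 under rosiglitazone, against 10.35, 10.57 and 10.44 in UC7 controls. The groups were clearly apart, with a change of -1.11 ± 0.14 (2.16-fold lower, adjusted p = 1.19e-05). ADM fell by 0.83 ± 0.14 in UC14 and changed by 0.34 in Scaber (adjusted p = 0.0864), and the Scaber change differed from that in UC7 by 1.45 ± 0.20 (adjusted p = 3.62e-05). The Scaber rise of ADM passed without background correction (0.33, adjusted p = 0.0398) and in the authors' log2 values (adjusted p = 0.0398). It also passed without non-targeting replicate 2 (0.48, adjusted p = 0.0177). VEGFA, the vessel growth factor, fell by 0.56 in Scaber (adjusted p = 0.0131), changed by -0.35 in UC14 (adjusted p = 0.0757) and by -0.24 in UC7 (adjusted p = 0.314). VEGFA did not pass in Scaber when non-targeting replicate 1 or 2 (both -0.49) or knockdown replicate 1 (-0.43) was left out. Another VEGFA probe, detected on all Scaber arrays, fell there by 0.97 (adjusted p = 0.000149) and changed by -0.24 in UC7 (adjusted p = 0.308).

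CA12, a membrane carbonic anhydrase that helps to regulate pH outside the cell, had the largest fall of the set in UC14, close to that of HK2, and in Scaber. It read 9.50, 9.11 and 9.12 under p63 shRNA, against 10.88, 11.05 and 11.22 in non-targeting UC14 cells. In Scaber it read 6.40, 7.03 and 6.70 under STAT3 siRNA, against 9.32, 9.51 and 8.79 in non-targeting cells. No arrays overlapped, and CA12 fell 3.49-fold in UC14 (-1.80 ± 0.18, adjusted p = 4.95e-07) and 5.63-fold in Scaber (-2.49 ± 0.18, adjusted p = 4.67e-08). Its other probe fell by 1.66 in UC14 and, undetected on all 3 STAT3 siRNA arrays, was at least 1.53-fold lower in Scaber. CA12 was not detected on any UC7 array.

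**Figure D4:**
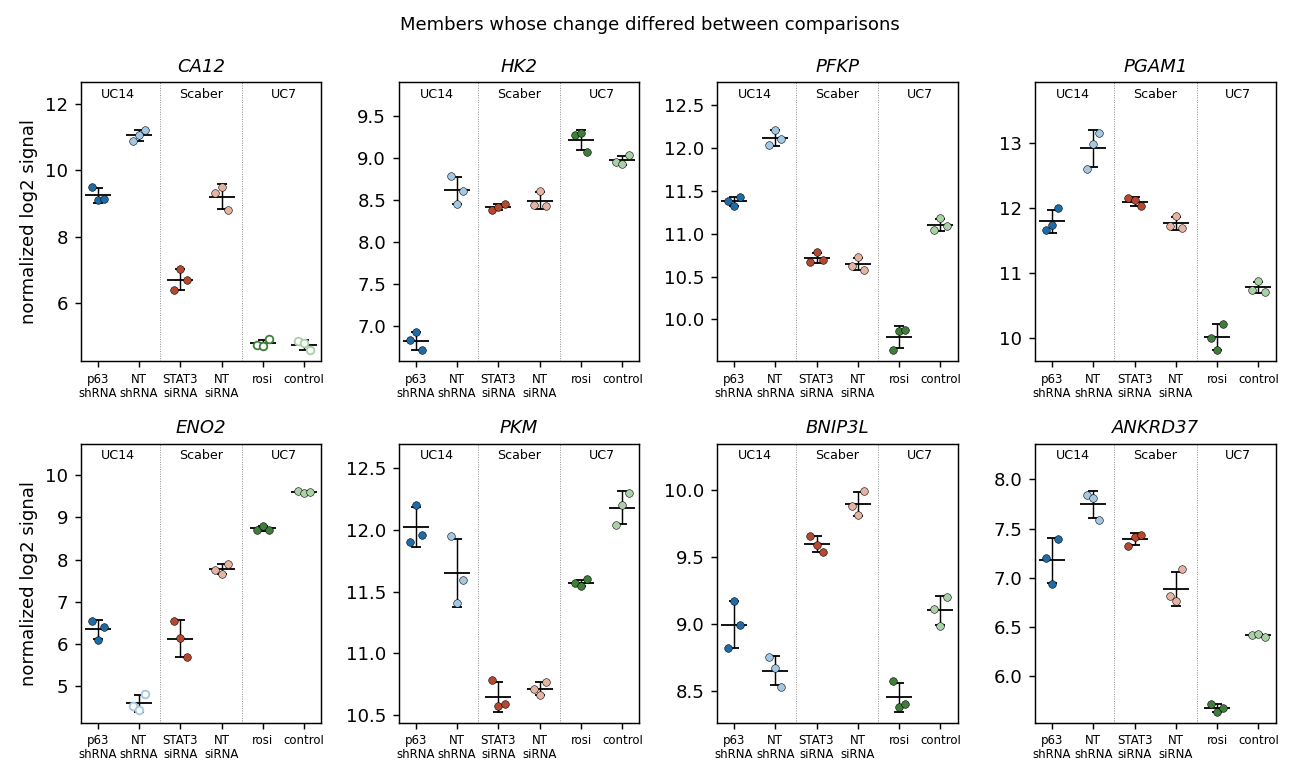
Normalized log2 signal (y axis) on each array for 8 genes whose changes differed between lines, by line and group (x axis, NT non-targeting, rosi rosiglitazone), with bars for mean and SD of 3 arrays and open points where a gene was undetected on the array. ENO2 under p63 shRNA lies above undetected controls while it lies below its controls in Scaber and UC7, and ANKRD37 lies above its controls in Scaber alone of the 3 lines.

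All 4 collagen-modifying enzymes fell in Scaber, 3 of them in UC7 and 1 in UC14, with medians of -1.13 in Scaber, -0.65 in UC7 and -0.02 in UC14. Of all genes, 13.8% fell in Scaber, 12.0% in UC7 and 20.9% in UC14. The UC7 and UC14 medians include LOX, which was detected on no array of those lines. Without LOX the middle value was that of PLOD2, -0.82 in UC7 and 0.03 in UC14. P4HA1, a catalytic subunit of collagen prolyl hydroxylase whose promoter is shown above, read 9.81, 9.64 and 9.52 under STAT3 siRNA and 10.72, 10.87 and 10.81 in non-targeting Scaber cells. Under rosiglitazone it read 7.68, 7.71 and 7.60, against 8.74, 8.66 and 8.69 in UC7 controls. The groups were about a log2 unit apart in both lines, with changes of -1.14 ± 0.11 in Scaber and -1.03 ± 0.11 in UC7 (adjusted p = 1.74e-06 and 3.14e-06). P4HA1 fell by 0.75 ± 0.11 in UC14, where its other probe changed by -0.52 (adjusted p = 0.138). Averaging in its other probe, which was undetected on all UC7 arrays, gave -0.60 in UC7.

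PLOD2, a lysyl hydroxylase of collagen cross-links, read 10.98, 11.16 and 10.97 under STAT3 siRNA and 12.21, 12.27 and 12.20 in non-targeting Scaber cells. With rosiglitazone it read 10.37, 10.15 and 10.27, against 10.95, 11.16 and 11.14 in UC7 controls. Neither pair of groups overlapped, and PLOD2 fell by 1.19 ± 0.10 in Scaber and by 0.82 ± 0.10 in UC7 (adjusted p = 3.08e-07 and 1.15e-05). It changed by 0.03 in UC14 (adjusted p = 0.861), where 1 of its other probes fell by 0.44, and the UC14 change differed from that in Scaber by 1.22 ± 0.14 (adjusted p = 4.72e-06).

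LOX, the lysyl oxidase that cross-links collagen and elastin, was detected in Scaber and on no array of UC14 or UC7. It read 8.51, 8.71 and 8.44 under STAT3 siRNA, against 9.72, 9.94 and 9.39 in non-targeting cells. The siRNA arrays were all lower, by 1.13 ± 0.12 (2.19-fold, adjusted p = 2.60e-06). P4HA2, the sister subunit of P4HA1, fell by 0.46 in Scaber and by 0.47 in UC7, and in Scaber 1 of its other probes changed by 0.08 (adjusted p = 0.664) and the mean of its probes by -0.24.

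NDRG1, a stress-induced gene linked to differentiation, read 9.61, 9.87 and 9.96 under p63 shRNA, against 11.02, 10.89 and 11.27 in non-targeting UC14 cells. The groups were nearly a log2 unit apart, and it fell by 1.25 ± 0.12 (2.37-fold, adjusted p = 4.71e-07). NDRG1 fell by 0.85 ± 0.12 in Scaber and by 0.68 ± 0.12 in UC7 (by 0.43 without background correction). BNIP3, PFKFB4, P4HA1 and NDRG1 were lower in all 3 comparisons in each of the 8 other settings run over the 18 arrays.

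ANKRD37, an ankyrin repeat protein induced by HIF, was the one gene of the set called higher in Scaber in the reported setting. Without background correction 3 were higher there, with PGAM1 and ADM beside it. ANKRD37 read 7.33, 7.41 and 7.44 under STAT3 siRNA, against 6.81, 6.76 and 7.08 in non-targeting cells. The groups were apart, with a rise of 0.51 ± 0.11 (adjusted p = 0.00319), which was 0.30 and did not pass under median scaling (adjusted p = 0.217). It fell by 0.57 in UC14 (median scaling gave -0.39 and no call) and by 0.74 in UC7 (0.37 without background correction), and the Scaber change exceeded that in UC7 by 1.25 ± 0.16 (adjusted p = 2.15e-05). ERO1A, an oxidase of protein folding in the endoplasmic reticulum, fell by 0.60 in Scaber and by 0.42 in UC7 and changed by -0.15 in UC14. MXI1, an antagonist of MYC, was called lower in UC14 although it was undetected in both groups there, and it did not pass in Scaber (-0.29, adjusted p = 0.0734). The other tested MXI1 probe, detected on 1 of 3 STAT3 siRNA arrays and on all 3 non-targeting arrays, fell by 1.14 in Scaber. MXI1 passed there with the mean of its probes (-0.72, adjusted p = 0.00136), under median scaling (-0.38), with array weights (-0.37) and when non-targeting replicate 3 was left out (-0.41).

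Tested directly, the change differed between UC14 and Scaber for 20 of the 35 genes, against 42.0% of all genes. The UC14 change was the higher of the pair for 14 and the lower for 6, against 23.0% and 19.1% of all genes. Between UC14 and UC7 it differed for 13, against 33.1%, with UC14 higher for 9 and lower for 4 (18% and 15.1% of all genes). Between Scaber and UC7 it also differed for 13, against 28.1%, with Scaber higher for 7 and lower for 6 (12.8% and 15.3%). These counts include LOX, undetected in both groups of UC14 and of UC7, in the comparisons of Scaber with either line. They also include CA12, undetected in UC7, in both comparisons with that line, so no change was measured there on 1 side. CA12 fell more in Scaber than in UC14 (0.69 ± 0.26, UC14 minus Scaber, adjusted p = 0.0389). PFKP separated Scaber from UC7 (1.39 ± 0.12, Scaber minus UC7, adjusted p = 3.55e-07) and PGAM1 separated UC14 from Scaber (-1.45 ± 0.19, UC14 minus Scaber, adjusted p = 1.56e-05). HIF1A fell more in UC7 than in UC14 or Scaber (differences of 0.92 ± 0.20 and 0.95 ± 0.20, adjusted p = 0.00196 and 0.00179).

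Further HIF targets outside the 37 were also counted. Of 31 tested, 16 fell and 3 rose in UC14, 17 fell and 0 rose in Scaber, and 10 fell and 2 rose in UC7, with median changes of -0.29, -0.47 and -0.22. Of all genes, 20.9% fell and 23.8% rose in UC14, 13.8% and 12.1% in Scaber, and 12.0% and 12.5% in UC7. The phosphate-regulating hormone STC2 fell by 1.76 in UC14 and fell by 2.61 in UC7, and AK4, a mitochondrial adenylate kinase, fell by 1.57 in UC14 and by 1.70 in UC7. In Scaber STC1 fell by 1.85 and SPAG4 by 1.66, and the lipase inhibitor ANGPTL4 fell by 1.72 there but rose by 0.78 in UC7. HMOX1, the haem-degrading enzyme, rose by 3.09 in UC14 and by 1.22 in UC7 and fell by 0.52 in Scaber. SLC2A1, the main glucose importer of tumour cells, fell by 0.53 in UC14, 0.54 in Scaber and 0.46 in UC7.

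Of 12 HIF partners and regulators, 3 fell and 3 rose in UC14, 1 fell in Scaber and 0 were called in UC7. The shares of all genes were 20.9% lower and 23.8% higher in UC14, 13.8% lower in Scaber, and 24.5% called in UC7. Nothing particular to this short list is read from its counts. CITED2, which competes with HIF for its coactivators, rose by 1.27 ± 0.12 in UC14. HIF1AN, the hydroxylase that blocks coactivator binding, fell by 1.22 ± 0.14 in Scaber (adjusted p = 5.77e-06). RBX1, a subunit of the ubiquitin ligase that marks HIF, rose by 0.59 in UC14, and the HIF partner ARNT2 fell by 0.77 there. VHL, which recognises hydroxylated HIF, was called in no line.

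Counts for neighbouring pathways stand beside the shares of all genes called, 44.7% in UC14, 25.9% in Scaber and 24.5% in UC7, and nothing particular to these short lists is read from them. Of 6 genes of the pentose phosphate pathway, 3 rose and 1 fell in UC14, 3 rose in Scaber and 2 rose in UC7, with TALDO1, a transaldolase, higher in each (0.66, 0.26 and 0.37). Of 13 genes of the citric acid cycle, 2 rose and 4 fell in UC14, 7 rose and 2 fell in Scaber, and 3 rose and 1 fell in UC7. Of 11 genes for pyruvate dehydrogenase and its regulators, 2 rose and 4 fell in UC14, 3 rose and 1 fell in Scaber, and 2 rose and 1 fell in UC7. PDK4, a kinase that inhibits the enzyme, rose by 0.96 in UC7, and MPC1, a subunit of the mitochondrial pyruvate carrier, rose by 0.64 in Scaber. Of 8 further genes of glycolysis, 4 rose and 2 fell in UC14, 0 were called in Scaber, and 2 rose and 1 fell in UC7. BPGM, which makes the red cell regulator bisphosphoglycerate, rose by 2.57 in UC14 and by 1.63 in UC7, and the gluconeogenic enzyme FBP1 rose by 1.26 in UC7. Of 7 further genes of collagen modification, 2 rose and 1 fell in UC14, 1 rose and 2 fell in Scaber, and 1 rose and 3 fell in UC7. The collagen chaperone SERPINH1 fell by 1.66 in UC14 and the lysyl oxidase relative LOXL4 rose by 2.27 in UC7.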

How the data were processed

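Raw probe signals and detection p-values of 18 Illumina arrays were deposited, per the file headers, as intensity values and p-values per probe. The authors also deposited log2 values for the same arrays, and these match the log2 of quantile-normalized raw signals to within 0.0018. Per the submitters' processing notes limma was used, and its version and that of the scanner software are not given in the sources used here. From the raw intensities, neqc of limma 3.58.1 (R 4.3.3) corrected background by the detection p-values, added an offset of 16, quantile-normalized and took log2. Of 47323 probes, 30113 carry 1 gene symbol in the platform annotation. Named probes entered the tests if 1 group or more had a detection p-value under 0.01 on each of its 3 arrays (16221 probes), and the probe of highest mean signal stood for each of 11978 genes. Group means and 1 spread per gene were fitted over 18 arrays (12 residual and 4.29 prior degrees of freedom) and tested with limma's moderated test, two-sided, with Benjamini-Hochberg adjustment at 0.05. Errors beside log2 changes are standard errors, n = 3 arrays per group, and array number limits the precision. A gene undetected on all arrays of 1 group is given as a bound against the higher of its own value and the lowest detected signal per array.

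Full values are given, per comparison, for the 8 called genes of largest change, called genes moving against the majority, HIF1A and EPAS1, and up to 3 called genes per neighbouring list are named; SLC2A1, VHL and second values of named genes were chosen after their values were seen. The genes and lists were chosen with earlier results of these data known. Alternatives were median scaling, no background correction, the authors' log2 values, other filters, the mean of a gene's probes, array weights, a replicate block, each line alone and leaving out each array.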

Additional observations from a re-analysis of the deposited data

How the results depend on the processing

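No gene of the set reversed direction as a called change under any alternative. Of the called and measured genes, 15 of 23 kept the call in every setting in UC14, 17 of 20 in Scaber and 20 of 26 in UC7. Leaving out 1 array at a time gave 21 to 25 called genes of the set in UC7, 20 to 24 in UC14 and 18 to 22 in Scaber. Over all genes, 2934 were called in UC7, against 4894 with array weights and 4831 with the UC7 arrays alone. In UC14 5351 were called, against 4522 with array weights and 3853 with the UC14 arrays alone. In Scaber 3106 were called, against 3756 and 2513 in the same settings. Each line alone gave 19 called genes of the set in UC14 (17 lower and 2 higher), 20 in Scaber (18 and 2) and 29 in UC7 (27 and 2). The reported fit takes 1 spread per gene from 18 arrays, so calls in a line also rest on the arrays of the others. Median scaling moved the median of all genes to 0.10 in UC14, -0.07 in Scaber and -0.06 in UC7, with -0.25, -0.53 and -0.51 for the gene set. It gave 5 higher and 13 lower genes of the set in UC14, 0 and 23 in Scaber, and 0 and 23 in UC7. Over all genes it gave 3144 higher and 1271 lower in UC14 (2845 and 2506 in the reported setting), 411 and 1905 in Scaber (1451 and 1655), and 1093 and 1609 in UC7 (1492 and 1442). The cause of these shifts was not tested. Slide as a block was not run because the headers give no slide.

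Deviations of same-numbered arrays correlated at -0.0018, -0.04 and 0.03 in UC14, at -0.11, 0.26 and 0.03 in Scaber, and at 0.06, -0.01 and 0.12 in UC7. In Scaber, non-targeting replicate 3 gave 0.29 with STAT3 siRNA replicate 1 and -0.32 with STAT3 siRNA replicate 2. With 3 arrays per group these values cannot decide whether the arrays were paired. The titles of rosiglitazone replicates 2 and 3 carry the letters C and B, and pairing UC7 by letter gave 0.06, -0.0056 and -0.06. With a replicate block, 23 genes of the set were called in UC14, 21 in Scaber and 25 in UC7 (24 by title letter). This lost PKM in UC14 (adjusted p = 0.0548), BNIP3L in Scaber (adjusted p = 0.0726) and LDHA in UC7 (adjusted p = 0.0577). It gained HIF1A (adjusted p = 0.0407) and PFKL (adjusted p = 0.019) in Scaber, so that HIF1A was lower in all 3 lines and LDHA was not.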
